A study of Mus musculus with 108 samples.

Results

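Pancreatic acinar cells, which make and secrete digestive enzymes, were ranked by the messenger RNA of 3 stress genes, and the cells at both ends of that ranking were compared across all other genes. For each single cell the score was the mean of log2(TPM + 1) over Ddit3, Chac1 and Trib3, where TPM is a transcript's length-corrected share of the reads, per 1000000. The 27 cells with the highest scores (here the high-score cells) and the 27 with the lowest (the low-score cells) were selected on these values and set against each other. The remaining 54 cells lay between them and are called the middle cells. All cells came from the pancreas of untreated male C57BL/6 mice aged 12 weeks, so every group shares 1 genotype, sex and treatment. Acini were freed with collagenase, made into single cells with Accutase, and each cell was lysed and sequenced on its own with a modified SMART-seq2 procedure. The labels give no mouse, plate or day for any cell. The cells therefore counted as 1 sample, and differences are given by size and spread over cells, with no p-value.

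Protein folding stress in the endoplasmic reticulum (ER) activates the unfolded protein response. One of its sensors, PERK, phosphorylates the translation factor eIF2, which lowers protein synthesis in general but raises translation of the transcription factor ATF4. ATF4 switches on genes for amino acid supply, tRNA charging and stress regulators, among them Ddit3, which encodes the transcription factor CHOP, Chac1, a glutathione-degrading enzyme, and Trib3, a pseudokinase that restrains ATF4 and CHOP. The sensors ATF6 and IRE1 act mainly on ER chaperones and on ER-associated degradation. Acinar cells carry a heavy load of secretory protein and depend on this system.

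ATF4, paired with C/EBP proteins such as CHOP, binds the C/EBP-ATF response element, and ATF6 binds the ER stress response element. The 250 bases before the RefSeq start (GRCm38.p6) are shown for Chac1, which weighed most in the score, for Fgf21 and Herpud1, which headed the 15 largest named differences between high-score and low-score cells, and for the chaperone gene Hspa5. Capitals mark the match to TGATGNAA, the core of the C/EBP-ATF element, in the first 3 and to the ER stress response element, CCAAT and CCACG with 9 bases between them, in the fourth. Both strands were searched, and the sequences run 5′ to 3′ along each gene's own strand. Other forms or spacings of these elements were not searched, so a window without a marked element may still hold a variant of it. This also applies to the ER stress response element in the Herpud1 window.
Chac1 promoter, chr2:119350992-119351241, plus strand: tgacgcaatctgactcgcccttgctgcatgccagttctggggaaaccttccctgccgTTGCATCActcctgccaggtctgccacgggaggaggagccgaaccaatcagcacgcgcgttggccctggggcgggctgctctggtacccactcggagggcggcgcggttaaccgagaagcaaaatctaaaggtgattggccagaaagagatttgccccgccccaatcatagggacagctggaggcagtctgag
Fgf21 promoter, chr7:45615491-45615740, minus strand: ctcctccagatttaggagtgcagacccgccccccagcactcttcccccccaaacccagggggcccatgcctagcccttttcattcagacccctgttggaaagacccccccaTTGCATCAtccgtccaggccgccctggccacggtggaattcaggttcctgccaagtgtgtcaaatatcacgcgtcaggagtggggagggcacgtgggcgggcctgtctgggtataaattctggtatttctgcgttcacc
Herpud1 promoter, chr8:94386179-94386428, plus strand: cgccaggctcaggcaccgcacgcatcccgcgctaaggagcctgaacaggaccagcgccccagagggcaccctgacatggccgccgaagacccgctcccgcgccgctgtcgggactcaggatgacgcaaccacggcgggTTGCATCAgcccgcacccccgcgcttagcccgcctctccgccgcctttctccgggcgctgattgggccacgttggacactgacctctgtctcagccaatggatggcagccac
Hspa5 promoter, chr2:34771840-34772089, plus strand: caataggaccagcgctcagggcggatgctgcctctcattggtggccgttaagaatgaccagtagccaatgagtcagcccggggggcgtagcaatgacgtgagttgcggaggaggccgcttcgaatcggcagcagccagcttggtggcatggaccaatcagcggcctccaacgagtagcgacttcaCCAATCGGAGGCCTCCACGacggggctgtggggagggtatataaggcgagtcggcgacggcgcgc

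Chac1, Fgf21 and Herpud1 held the same 8 letters, TTGCATCA, which match the core on the opposite strand. They lie 193 to 186 bases before the start in Chac1, 139 to 132 in Fgf21, and begin 112 bases before it in Herpud1. The core was found in 3.45% of 32851 mouse promoters in the table and in neither the Ddit3 nor the Trib3 window. Counted by gene, at least 1 promoter held it for 2.6% of the 5582 compared genes that were matched. The ER stress response element lies 65 to 47 bases before the RefSeq start of Hspa5 and was found in 0.113% of all promoters. GENCODE places the start of the Hspa5 gene at 34771970, inside the window and before this site. Its distance therefore also depends on which start is taken. For Herpud1 and Trib3 the first 50 bases after the RefSeq start were not found in 1 piece in a GENCODE transcript, so distances there depend on which start is taken. Also searched were TGACGTGG, the unfolded protein response element, and TGACGTCA, the cyclic AMP response element. They were found for 1.07% and 3.21% of these compared genes and in none of the 4 promoters shown. A match in letters is a description and does not show binding.

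The 3 score genes differed widely in level, and their listed values correlated weakly. Chac1 was listed at 4.53 TPM in the lowest high-score cell, at a median of 21.18 and at 110.21 in the highest, and at 0, 2.49 and 7.42 TPM in the low-score cells. Ddit3 was listed at 0, 3.86 and 21.84 TPM in the high-score cells and at 0, 0 and 3.32 in the low-score cells. Trib3 was scarce, at 0, 0.59 and 2.88 TPM against 0, 0 and 1.13. These values chose the groups and are given as a description only. At 1 TPM or more, Ddit3 was detected in 22 of 27 high-score cells (81.5%, exact Clopper-Pearson 95% interval 61.9 to 93.7%) and in 6 of 27 low-score cells (22.2%, 8.62 to 42.3%). Trib3 was detected in 9 and 1. Intervals cover counting error only, and the read depth of each cell is unknown because TPM do not keep it.

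**Figure D1:**
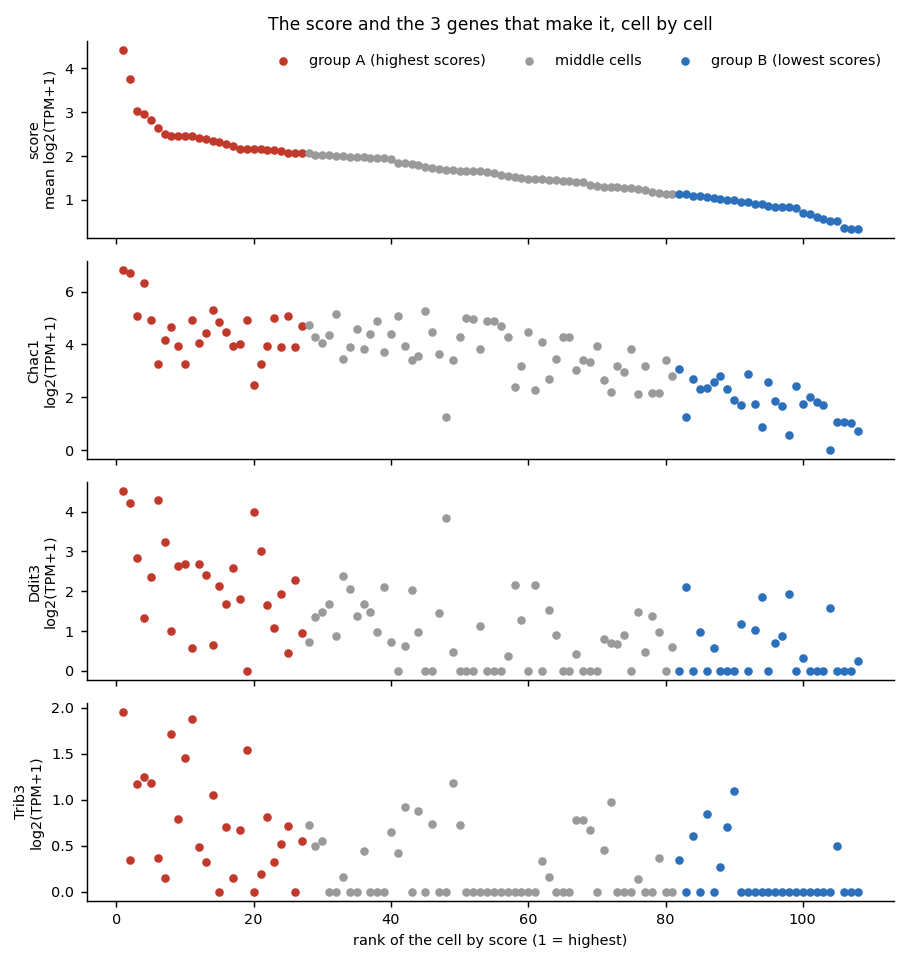
The score (top) and log2(TPM + 1) of Chac1, Ddit3 and Trib3 in every cell, ordered by score from rank 1 (highest), with high-score cells (group A) in red, middle cells in grey and low-score cells (group B) in blue. The score declines without a gap at either boundary, Chac1 follows it most closely, and Ddit3 and Trib3 are listed at 0 in many cells.

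The label of a shared Ddit3 and Chac1 stress state was checked against the cells. Over all cells the Spearman correlation was 0.05 between Ddit3 and Chac1, 0.09 between Ddit3 and Trib3 and 0.33 between Chac1 and Trib3, on values from the same libraries. Between Ddit3 and Chac1 it was 0.00, 0.12 and -0.01 within cells numbered 1 to 48, 49 to 91 and 92 and above. Chac1 made up 53.2% of the variance of the score, Ddit3 34.8% and Trib3 12.0%. Only 14 of the high-score cells were among the 27 cells highest in Chac1, while 20 of the low-score cells were among its 27 lowest. Of the high-score cells, 9 exceeded every low-score cell in 1 of the 3 genes, 14 in 2 and 4 in all 3. These counts come from the values that chose the groups and are a description only. Ddit3 was listed at 0 in 1 high-score, 18 middle and 15 low-score cells, and Trib3 in 3, 33 and 20. Values near the floor can lower a correlation, which was not tested. The listed values alone therefore do not show 1 state shared by all 3 genes, and the groups are called by their score.

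The ranking has no break at its borders. The last high-score cell, number 30, and the first cell outside, number 2, both scored 2.06, with Chac1 at 25.09 and 25.84 TPM and Ddit3 at 0.92 and 0.65 TPM. At the other border the first low-score cell, number 87, and the last middle cell, number 96, both scored 1.14, with Chac1 at 7.42 and 6.04 TPM. Scores ran from 2.06 to 4.42 in the high-score cells (median 2.34) and from 0.33 to 1.14 in the low-score cells (median 0.86). Cell 83 was highest in all 3 genes.

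High-score and low-score cells both carried the acinar programme. Digestive enzyme transcripts took a median of 88.3% of the TPM in high-score and 87.3% in low-score cells (82.9 to 92.1% and 82.4 to 91.4%). Each of the 10 acinar markers reached 1 TPM in all high-score and all low-score cells. Genes detected per cell had medians of 4235 (3122 to 5032) and 4128 (2624 to 4603). The groups were drawn unevenly from the cell numbers. Cells 92 and above, whose deposited TPM sum to between 788380 and 990520 and not to 1000000, supplied 3 high-score cells (14.3% of these 21 cells, exact 95% interval 3.05 to 36.3%) and 7 low-score cells (33.3%, 14.6 to 57.0%). Cells 1 to 48 supplied 11 of each, and cells 49 to 91 supplied 13 and 9. Differences are therefore also given within these 3 sets of cells, in that order. Of the markers of other cell types, none of 14 endocrine, 11 endothelial, 13 lymphocyte and 6 erythrocyte genes, 1 of 12 stellate or fibroblast genes (Gsn) and 1 of 13 macrophage genes (C1qa) reached 1 TPM in 10% of all cells. Their summed levels per list had medians of at most 0.29 TPM in either group and reached 11.19 TPM in a high-score and 6.02 TPM in a low-score cell. Among middle cells the endothelial sum reached 90.98 TPM, with up to 9 of the 11 genes detected in a cell. The stellate or fibroblast sum there reached 39.22 TPM, with up to 6 of 12 detected. Middle cells enter the correlations over all cells, and whether any of them carry other cells' RNA was not tested. At 0 in every cell were 4 endocrine (among them Sst and Ppy), 9 lymphocyte (among them Cd3e and Trac), 8 macrophage (among them Ptprc and Adgre1), 3 stellate or fibroblast and 2 erythrocyte markers. The 14 ductal markers summed to medians of 267.5 TPM (154.74 to 506.98) in high-score and 260.49 TPM (156.47 to 829.22) in low-score cells, and the duct gene Krt19 had medians of 1.73 and 2.01 TPM.

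Few genes differed by much between the ends of the ranking. The difference of a gene was its mean log2(TPM + 1) in high-score cells minus that in low-score cells, and 7224 genes with at least 1 TPM in at least 11 cells were compared, the 3 score genes left out. Only 4 genes (0.0554%) were higher by 1 or more and 5 (0.0692%) lower by as much. At 0.5 or more, 157 genes (2.17%) were higher and 39 (0.54%) lower, of which 123 and 30 had the same sign in all 3 sets of cells (1.7% and 0.415% of all compared). The median difference of all genes was 0.08, the middle 50% lay between -0.04 and 0.20, and the values ran from -1.59 to 1.87. For no gene did the 2 groups separate without overlap (0%). The 4 genes past 1 were Fgf21, Herpud1, the Reg family gene Reg3b and the gene model Gm44364. Those lower were the gene models Gm37750, Gm12918, Gm10443 and Gm6472 and the metallothionein gene Mt2, at -1.10. The counts depend on how low values are scaled, since 211 were higher and 43 lower with a pseudocount of 0.1 and 2 and 1 with a pseudocount of 5. Of the 196 genes past 0.5 in either direction 80.1% were higher, beside 91.2% after rescaling without digestive enzymes, 63.6% with median-of-ratios scaling and 53.3% for the residual on genes detected.

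Fgf21, which encodes a secreted hormone of the fibroblast growth factor family and is a textbook target of ATF4 (chr7:45613886-45615490, minus strand), differed most. It was listed at 0, 17.94 and 115.16 TPM (lowest, median, highest) in high-score cells, at a median of 7.62 in middle cells and at 0, 2.09 and 30.87 TPM in low-score cells. The high-score cells were split, with 5 listed at 0 and 8 above every low-score cell, and 22 of 27 stood above the low-score median. On the log2 scale the mean was 3.56 ± 2.14 against 1.69 ± 1.42 (SD over 27 cells each), a difference of 1.87 that was 2.59, 1.83 and 1.40 within the sets of cells. This difference is about as large as the spread between cells of a group.

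Herpud1, which encodes an ER membrane protein of ER-associated degradation (chr8:94386438-94395377, plus strand), was listed at 51.28, 115.38 and 364.51 TPM in high-score cells. In middle cells its median was 83.70 TPM, and in low-score cells it was listed at 22.55, 59.13 and 130.55 TPM. The groups overlapped, but 25 of 27 high-score cells exceeded the low-score median and 10 exceeded every low-score cell. Its mean log2 value was 6.96 ± 0.67 against 5.91 ± 0.47 (SD over cells), a difference of 1.04. Within the sets it was 0.83, 1.51 and 0.11, so that cells 92 and above showed little of it. Leaving out 1 cell at a time moved it between 0.98 and 1.09.

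Atf4 itself, the transcription factor at the centre of the pathway (chr15:80255184-80257541, plus strand), was listed at 10.33, 27.80 and 48.54 TPM in high-score and at 4.50, 17.59 and 30.09 TPM in low-score cells, with a middle median of 21.63. Of the high-score cells, 24 lay above the low-score median and 9 above the highest low-score cell. The means were 4.77 ± 0.44 and 4.04 ± 0.62, a difference of 0.72 (0.53, 0.98 and 0.26 within the sets). Much of ATF4 control acts on translation, which RNA levels do not show.

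**Figure D2:**
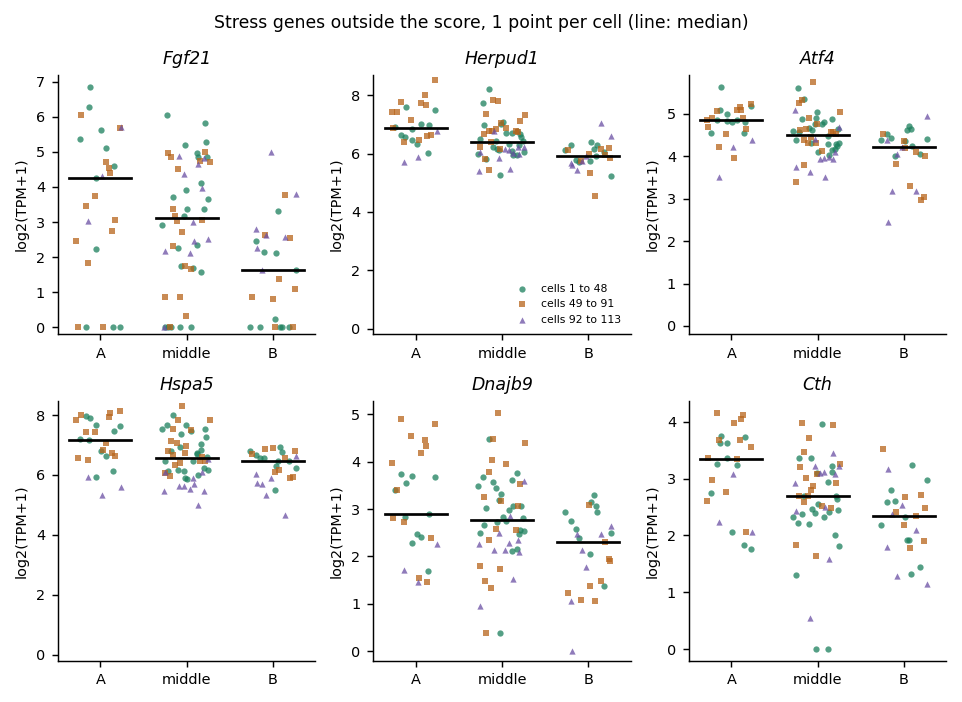
Log2(TPM + 1) of 6 stress genes outside the score in high-score (A, 27), middle (54) and low-score (B, 27) cells, 1 point per cell, with the median as a line and symbols for the 3 sets of cell numbers. All 6 medians step down from A through the middle cells to B, the point clouds overlap, and the triangles (cells 92 and above) lie low in Hspa5 in every group.

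Most other ATF4-CHOP stress regulators differed little. Of 30 listed genes 22 were compared, and 4 were higher by at least 0.5 (18.2%, against 2.17% of all genes): Fgf21, Herpud1, Atf4 and the secreted glycoprotein gene Stc2, at 0.50. The median of the list was 0.16, beside 0.08 for all genes, and 19 of 22 differences were above 0, beside 68.1% of all genes compared. Atf3, a stress transcription factor, had medians of 0.20 and 0.14 TPM and a difference of -0.02, made of 0.84, -0.97 and 1.36 within the sets. Ppp1r15a, which encodes the GADD34 subunit that reverses eIF2 phosphorylation, had medians of 3.04 and 3.11 TPM and a difference of 0.15. Nupr1, a stress-induced chromatin protein of the acinar cell, was abundant in both groups, at 647 and 703 TPM. Sesn2, Gdf15, Bbc3 and 5 further members were detected in fewer than 11 cells and were not compared.

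Genes that supply amino acids were mostly a little higher in high-score cells. All 24 compared members of the 26 amino acid and one-carbon ATF4 targets had differences above 0, beside 68.1% of all genes compared, and 15 of them were above 0 in each set of cells, beside 20.2%. The list median was 0.31. Only Cth and Slc7a3 reached 0.5 (8.33% against 2.17% of all genes). Cth, which encodes cystathionine gamma-lyase, the enzyme that makes cysteine from cystathionine, was listed at 2.41, 9.12 and 16.83 TPM in high-score and at 1.21, 4.07 and 10.42 TPM in low-score cells. High-score cells stood above the low-score median in 21 of 27 cases and above the highest low-score cell in 11, and the difference was 0.85 (0.70, 0.96 and 0.40). Slc7a3, a cationic amino acid transporter, had medians of 2.07 and 0.91 TPM and a difference of 0.70 (0.44, 1.08 and 0.64). Asns, the asparagine synthetase gene, was well expressed in both groups (medians 56.50 and 53.25 TPM) and differed by 0.29. At the bottom of the list stood the serine hydroxymethyltransferase gene Shmt2, at 0.01.

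The cytosolic aminoacyl-tRNA synthetases, which charge tRNAs with amino acids, had a list median of 0.21, with 18 of 20 above 0 (68.1% of all genes) and 9 above 0 in each set (20.2% of all genes). Tars, the threonyl-tRNA synthetase gene, was listed at 2.21, 6.47 and 12.59 TPM in high-score and at 0.42, 2.78 and 11.83 TPM in low-score cells. It was the 1 member past 0.5 (5.00% against 2.17%), at 0.83, and 24 of 27 high-score cells exceeded the low-score median. Next came Eprs and Rars, both at 0.48, while Mars stood at -0.06. Outside this list, the mitochondrial leucyl-tRNA synthetase gene Lars2 went the other way. It was listed at 68.89, 178.19 and 512.30 TPM in high-score and at 121.84, 284.88 and 901.88 TPM in low-score cells. The difference was -0.81 (-0.55, -0.63 and -1.60), and only 2 high-score cells stood above the low-score median. Its level is unlike that of the 20 cytosolic genes, which together summed to medians of 111.05 and 90.32 TPM. Whether all reads assigned to Lars2 come from its own messenger RNA was not tested.

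Of the 22 gene lists, the ER chaperones and folding enzymes held the most genes past 0.5 by count, while the short list of Reg and acute-phase genes had the highest share (3 of 7, 42.9%). Of 28 chaperone genes compared, 8 were higher by at least 0.5 (28.6%, against 2.17% of all genes). None was lower by as much, beside 0.54% of all genes. The 8 higher genes were the co-chaperone Dnajb9 (0.98), the disulfide isomerases Pdia4 (0.88) and Pdia3 (0.74) and the master chaperone Hspa5, also called BiP (0.79). The others were Hyou1 (0.70), Creld2 (0.65), Manf (0.57) and Hsp90b1 (0.56). The list as a whole had a median of 0.20, and 23 of 28 members were above 0, beside 68.1% of all genes. Within the sets the median was 0.10, 0.24 and -0.04, and 8 members were above 0 in all of them, beside 20.2% of all genes. The lowest members were Pdia5 (-0.16) and Dnajc10 (-0.10).

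Hspa5 (chr2:34771970-34777547, plus strand) was listed at 39.54, 142.26 and 278.63 TPM in high-score cells, at a median of 93.86 in middle cells and at 24.60, 86.82 and 120.82 TPM in low-score cells. More than any other of the 6 plotted genes, it separated the upper tail, with 15 of 27 high-score cells above the highest low-score cell. The difference was 0.66 and 0.88 in cells 1 to 48 and 49 to 91 and -0.09 in cells 92 and above. In those last cells Hspa5 was low whatever the score, with a median of 50.95 TPM beside 105.96 and 110.43 in the other sets. The low-score group holds 7 of these cells and the high-score group 3, and the mean of the 3 within-set differences was 0.48, beside the pooled 0.79.

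Dnajb9 was listed at 1.74, 6.42 and 28.80 TPM in high-score and at 0, 3.91 and 8.79 TPM in low-score cells, and 13 of 27 high-score cells exceeded every low-score cell. Its differences within the sets were 0.33, 1.78 and 0.02, with the largest in cells 49 to 91. Those of Pdia4 were 0.54, 1.05 and 0.00, with medians of 14.70 and 6.85 TPM. The ER stress response element was found in the promoters of 7 of 24 chaperones matched to the promoter table (29.2%, beside 0.215% of all compared genes), namely Hspa5, Hsp90b1, Calr, Canx, Pdia6, Creld2 and Ero1b. Of these, Hspa5, Hsp90b1 and Creld2 are among the 8 genes past 0.5.

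The sensors and eIF2 kinases showed small and mostly positive differences. None of the 13 compared of 17 sensor and eIF2 kinase genes reached 0.5 in either direction. Of all genes 2.17% were higher and 0.54% lower by as much, so none of 13 is near that share. Above 0 were 12 of 13 (68.1% of all genes), with a median of 0.25. Eif2ak3, which encodes PERK, had medians of 3.74 and 2.52 TPM and a difference of 0.25 (0.46, 0.46 and -0.81). Xbp1, whose spliced form carries the IRE1 signal, differed by 0.27 (62.51 and 53.63 TPM), and gene totals do not show its splicing. Atf6 differed by 0.21, Ern1, which encodes IRE1, by 0.06 and Eif2s1, which encodes the phosphorylated subunit of eIF2, by 0.46. In ER-associated degradation 1 of 20 genes reached 0.5 (5.00%, against 2.17% of all genes), the ubiquitin ligase gene Syvn1, at 0.69 (0.38, 0.98 and -0.22). Its medians were 9.41 and 3.97 TPM. Herpud1 was counted with the ATF4-CHOP stress regulators and not in this list, although its protein acts in ER-associated degradation.

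**Figure D3:**
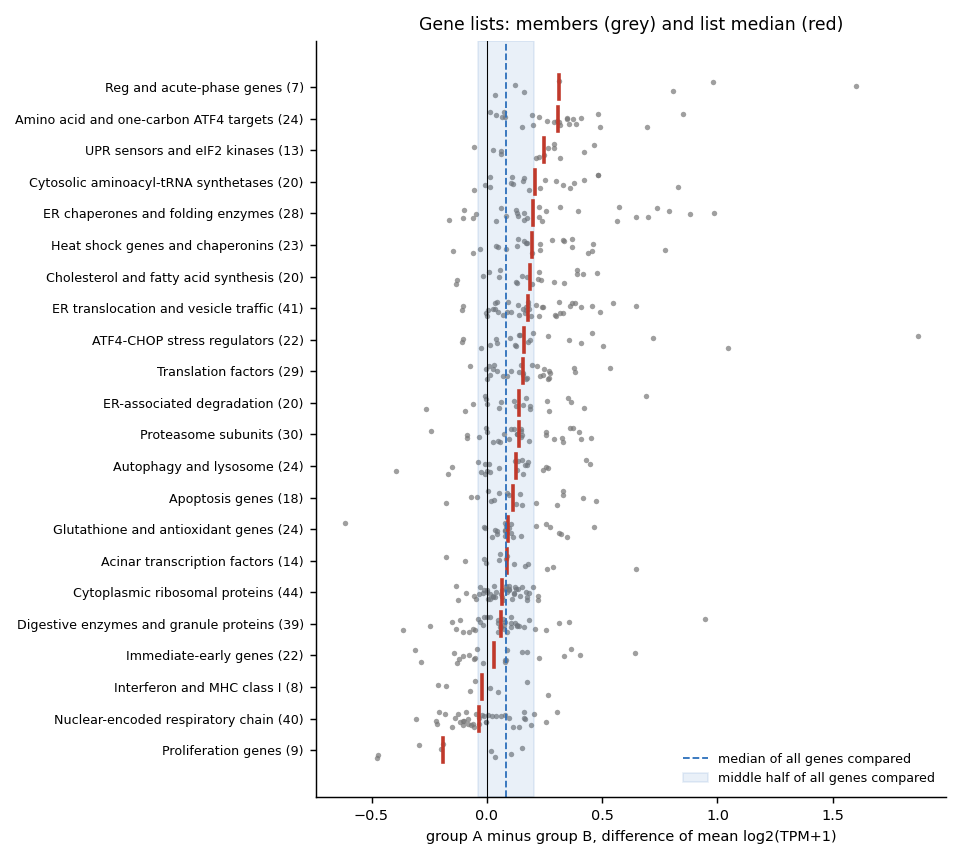
Differences between high-score and low-score cells for the compared members of 22 gene lists (grey points, number of members in parentheses), with each list's median in red, the median of all 7224 genes as a dashed line and their middle 50% shaded. List medians run from -0.19 to 0.31, and single genes such as Fgf21 at 1.87 stand far from their list.

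Along the secretory route the differences were small. Of 41 translocation and vesicle traffic genes 38 were above 0 (68.1% of all genes), with a median of 0.18 that was 0.07, 0.30 and -0.01 within the sets. Past 0.5 were 2 of them (4.88%, against 2.17% of all genes), the COPI coat gene Copb1 (0.65) and the signal recognition particle gene Srp54a (0.55). The digestive enzymes, the main load of the ER, had a median of 0.06 over 39 genes. Prss2, a major trypsinogen, had medians of 103625 and 99455 TPM and a difference of 0.08, and pancreatic lipase, Pnlip, differed by 0.00. Amylase Amy2a1 was somewhat higher, with medians of 87976 and 70608 TPM and a difference of 0.36 (0.30, 0.22 and 0.67). Prss1, a minor trypsinogen here at medians of 63.99 and 27.48 TPM, was the 1 enzyme past 0.5, a share of 2.56% that is near the 2.17% of all genes. Its difference was 0.94 (0.21, 1.51 and 1.35). Amylase and trypsinogen copies share near-identical sequence, so the split of reads among them is uncertain. Ptf1a, the master regulator of acinar identity, was listed at 1.78, 13.16 and 43.20 TPM in high-score and at 1.71, 7.64 and 29.94 TPM in low-score cells. It was higher by 0.65 (0.57, 0.69 and -0.11), with 23 of 27 high-score cells above the low-score median, while the secretory regulator Bhlha15 stood at 0.26.

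Differences of immediate-early and Reg genes depended on which cells were compared. Immediate-early genes had a median of 0.03 over 22 genes that was 0.43, -0.42 and 0.03 within the sets, and Fos, at 0.08, split into 1.08, -0.59 and 0.78. Reg and acute-phase genes, which encode secreted proteins raised in pancreatic injury, had a median of 0.31 over 7 genes, none of them above 0 in every set, and 0.20, -0.49 and 0.51 within the sets. Reg3b was among the genes past 1 at 1.60, but within the sets it was 2.27, -0.52 and 1.10. Mt2 likewise was -1.10 in all cells and 0.07, -2.31 and 0.26 within the sets. Heat shock genes, a list that also holds mitochondrial chaperones, had a median of 0.20 (0.27, 0.23 and 0.09), with 20 of 23 above 0 (68.1% of all genes). Past 0.5 was 1 of them (4.35%, against 2.17% of all genes), the mitochondrial chaperone gene Hspa9, at 0.77. None of 18 apoptosis genes reached 0.5 in either direction, and their median was 0.11. Of all genes 2.17% were higher and 0.54% lower by as much, so that for so short a list none is near that share.

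Housekeeping lists differed little. The median was 0.07 for 44 ribosomal proteins, 0.14 for 30 proteasome subunits, 0.16 for 29 translation factors, 0.13 for 24 autophagy and lysosome genes and 0.19 for 20 genes of cholesterol and fatty acid synthesis. Of these 147 genes, the eIF2B subunit gene Eif2b3 (0.53) alone was higher by 0.5 or more, beside 2.17% of all genes. The 24 glutathione and antioxidant genes, of interest because Chac1 degrades glutathione, had a median of 0.09. Their extremes were Chac2, the constitutive relative of Chac1, at 0.46, and Mgst1, a microsomal glutathione transferase, at -0.61. Another 3 lists had medians below 0, namely the respiratory chain (-0.03), interferon and MHC class I genes (-0.02) and proliferation genes (-0.19). Over the alternative settings 10 lists had medians on both sides of 0, the digestive enzymes, acinar transcription factors, immediate-early, Reg, glutathione, ribosomal, autophagy, respiratory, interferon and proliferation lists, and 12 stayed above 0. In all, 16 of 22 lists had a median above that of all genes and none reached 0.5.

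The 15 largest named differences ranged from 0.76 to 1.87, with 3 gene models of such a size left unnamed by the rule. They belonged to Fgf21, Herpud1, the phosphoinositide phosphatase gene Pip4p1 (0.99), Dnajb9, the ubiquitin ligase gene Rnf146 (0.95), Prss1, the long noncoding RNA Malat1 (0.91), the transthyretin gene Ttr (0.90), Pdia4, Cth, Tars, Hnrnpf (0.80), Hspa9, Kti12 (0.76) and Smim26 (0.76). For 14 of them the median of the middle cells lay between those of the ends, Malat1 being the exception. The genes were picked for the gap between the ends, so this is largely built into the choice and shows no trend. Rnf146 was detected in 22 of 27 high-score cells (81.5%, exact 95% interval 61.9 to 93.7%) and in 6 of 27 low-score cells (22.2%, 8.62 to 42.3%). It was picked for its difference, so the intervals describe each group and do not test the groups against each other. Its highest values were 4.87 and 1.95 TPM, and 12 high-score cells exceeded every low-score cell. Malat1 ran from 174.77 to 924.52 TPM in high-score and from 0 to 1147.12 TPM in low-score cells, and the difference of its log2 medians was only 0.25. The promoter table held 12 of these 15 genes, and TGATGNAA was found in 5 of them (41.7%, beside 2.6% of compared genes): Fgf21, Herpud1, Prss1, Smim26 and Tars. Among the 15 smallest differences it was found in 1 of 12, Sap18. By list, it was found in 5 of 25 ATF4-CHOP regulators, 4 of 21 amino acid genes and 3 of 13 synthetases, but also in 5 of 32 digestive enzymes (15.6%) and 2 of 19 cholesterol and fatty acid genes (10.5%). It was found in 7.08% of the genes higher by at least 0.5 that were matched.

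Gene models, which the rule left unnamed, took the 4 lowest places among genes detected in 25% of cells with 1 sign in every set: Gm12918 (-1.48), Gm10443 (-1.37), Gm6472 (-1.24) and Gm12976 (-0.91). The 15 smallest named differences ran from -0.53 to -0.82. Besides Lars2, they were Arl5c, an ARF-like GTPase gene (-0.82), the RNase P RNA gene Rpph1 (-0.71), the microtubule-associated protein gene Map4 (-0.69), Alpk2, Mgst1, Banf2, Abhd14a, Zmynd8, Kctd3, Sap18, Ccpg1os, Pcbd2, the type VII collagen gene Col7a1 and Pold4. Arl5c was detected in 3 of 27 high-score cells (11.1%, 2.35 to 29.2%) and in 12 of 27 low-score cells (44.4%, 25.5 to 64.7%). Its highest value was 2.06 TPM in the former and 23.92 in the latter. Arl5c was likewise picked for its difference, and its intervals do not test the groups against each other. Ccpg1os is annotated opposite Ccpg1, and reads of the pair cannot be told apart without strand. The middle median lay between the ends for 10 of the 15, which were likewise picked for the gap between the ends.

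**Figure D4:**
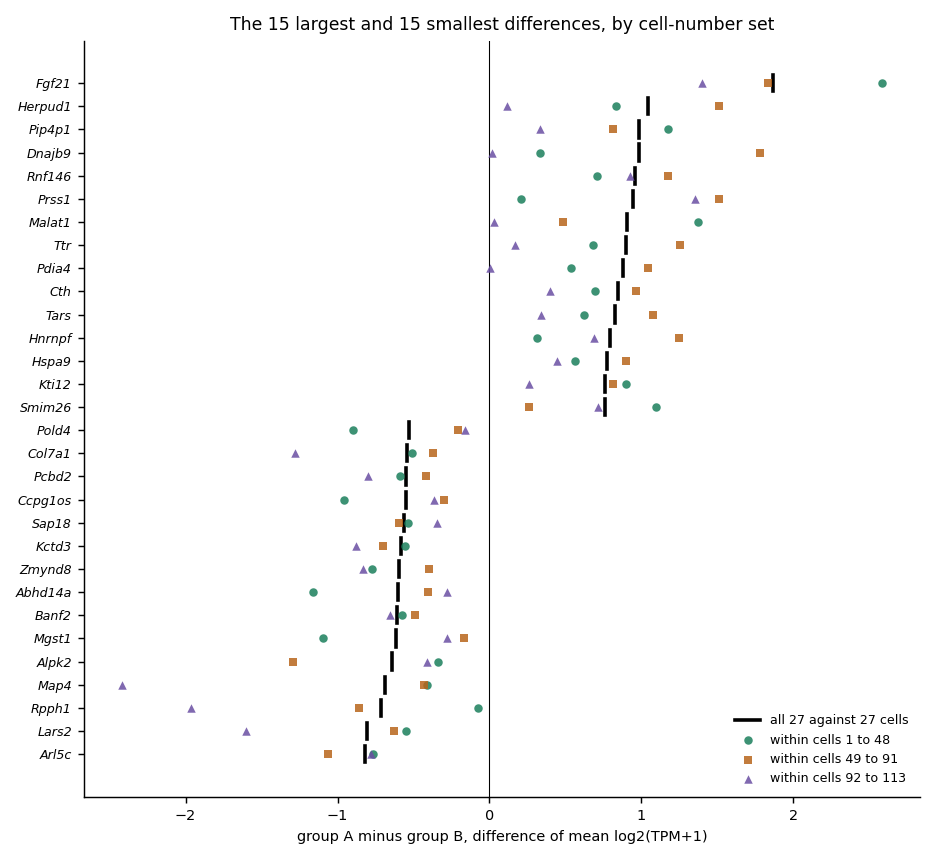
Differences of mean log2(TPM + 1) between high-score and low-score cells for the 15 largest and 15 smallest named genes, over all 27 against 27 cells (black bars) and within cells 1 to 48, 49 to 91 and 92 and above (coloured symbols). Genes were named only if the sign was the same in all 3 sets, and the triangles of Herpud1, Dnajb9, Pdia4 and Malat1 lie near 0.

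Across all cells, the gene that followed the score best was Herpud1, with a Spearman correlation of 0.60. Among those next in order were Atf4 (0.49), Tmem263 (0.45), Tars (0.42), the COPI coat gene Arcn1 (0.42), Cth (0.41), the small GTPase gene Rap1a (0.41), the methyltransferase gene Ntmt1 (0.41) and Hspa5 (0.41). Only 12 of 7224 genes (0.166%) reached 0.4 and none -0.4, the median was 0.05, and Lars2 was lowest at -0.37. All values of a cell come from 1 library, which these correlations share. Over all cells, the correlation of Herpud1 was 0.57 with Chac1, 0.27 with Ddit3 and 0.26 with Trib3. Within the high-score cells alone it was 0.22 with Chac1 and 0.38 with Ddit3. Those cells were selected on the mean of the score genes, and among them Ddit3 and Chac1 correlated at -0.33. These 2 values are therefore shaped by the selection and do not show which gene Herpud1 follows. For Atf4 the correlation with Chac1 was 0.47 and that with Ddit3 0.24 over all cells, but 0.34 and 0.44 in cells 1 to 48. That of Fgf21 was 0.34 with Chac1 and 0.32 with Ddit3 over all cells, 0.49 and 0.18 in cells 49 to 91 and 0.11 and 0.52 in cells 92 and above. Which score gene Atf4 and Fgf21 followed more closely therefore depended on the cells taken. Herpud1 followed Chac1 more closely than Ddit3 in cells 1 to 48 (0.57 and 0.18) and 49 to 91 (0.63 and 0.49). In cells 92 and above it followed neither (0.09 and 0.10).

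Within the sets the correlation of Herpud1 with the score was 0.57 in cells 1 to 48, 0.72 in cells 49 to 91 and 0.22 in cells 92 and above. For Atf4 it was 0.54, 0.68 and -0.02, and for Hspa5 0.38, 0.57 and -0.28. For Fgf21 it was 0.43, 0.41 and 0.36. The last set holds only 21 cells. Taking 1 gene out of the score left Fgf21 higher in the high-score cells by 1.59 without Ddit3, 1.59 without Chac1 and 1.81 without Trib3. The same 3 scores gave 0.95, 0.73 and 1.07 for Herpud1 and 0.72, 0.39 and 0.77 for Atf4. Without Chac1 in the score, Herpud1 ranked 18th among all genes by correlation, at 0.33.

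**Figure D5:**
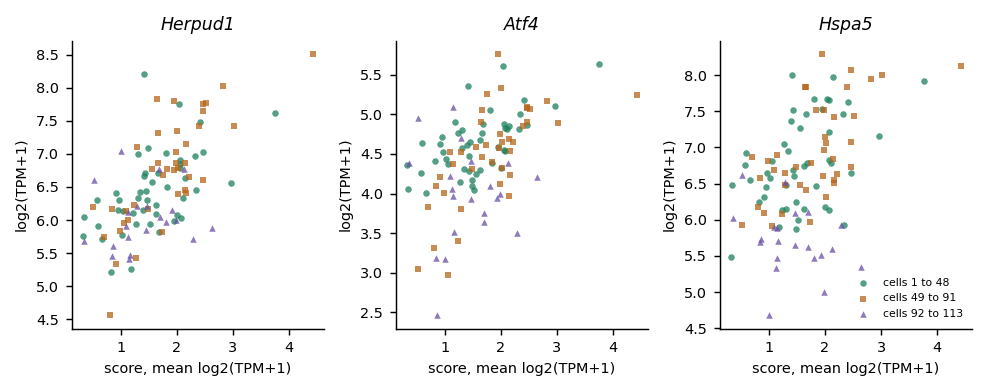
Log2(TPM + 1) of Herpud1, Atf4 and Hspa5 against the score in all cells, with symbols for the 3 sets of cell numbers. Herpud1 climbs with the score in cells 1 to 48 and 49 to 91 (Spearman 0.57 and 0.72), and cells 92 and above (triangles) lie low with no such slope in Atf4 and Hspa5 (-0.02 and -0.28).

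The score did not pick out all cells high in these genes. A further 6 genes, chosen after their values were seen (Fgf21, Herpud1, Atf4, Hspa5, Dnajb9 and Cth), were read cell by cell against the highest low-score value of each. By this cutoff no low-score cell can exceed it. High-score cells exceeded it in at least 4 of the 6 genes in 9 of 27 cases and middle cells in 6 of 54. It was exceeded in none of the 6 genes by 5 high-score and 26 middle cells. Cells 83 and 38, first and second by score, exceeded it in all 6. Cell 83 held Herpud1 at 364.51, Hspa5 at 278.63 and Fgf21 at 50.68 TPM, and cell 38 held 195.03, 239.77 and 115.16 TPM. Among middle cells, number 88 had the highest Hspa5 (312.86 TPM), Atf4 (53.39 TPM) and Dnajb9 (31.66 TPM) of all cells, with Chac1 at 28.69 TPM but Ddit3 at 0.95 and Trib3 at 0. Cell 8, ranked 67 by score with Chac1 at only 7.26 TPM, held Herpud1 at 294.70 and Hspa5 at 256.30 TPM. Cell 40, 1 of the 6 middle cells counted above, had 6946 genes detected, the most of any cell. None of the 15 cells above the highest low-score value in at least 4 of the 6 genes came from cells 92 and above.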

How the data were processed

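The authors deposited 1 table of TPM for 45195 Ensembl genes in 108 cells, rounded to 2 decimals. The unit is taken from the values, which sum to 1000000 in most cells. Per the submitters' processing notes, mm10 was the build and the tools were RSEM 1.2.21, STAR 2.4.2a and edgeR, with their roles not given. Columns were matched to cells by cell number, and 44548 rows to symbols. From these values, differences of mean log2(TPM + 1) and Spearman correlations were computed with numpy 2.4.6 and pandas 2.3.3. No test was run. A gene counted as detected at 1 TPM. The fixed sizes were 1 and 0.5. Genes were named by a rule: the score genes, the 15 largest and 15 smallest differences among genes detected in 25% of cells (27 cells) with 1 sign in all sets (unnamed gene models, called Gm or Rik, left out), the 10 highest and 5 lowest correlations, the 3 highest and 2 lowest of each list, and 20 listed genes. One result under this rule is not reported here. Outside this rule, Stc2, Pdia3, Hyou1, Creld2, Manf, Hsp90b1, Mt2, Gm12976 and gene models past 1 were named after their values were seen. The sets follow cell numbers, with bounds taken from an earlier analysis, and a set gave a value with at least 3 cells of each group. The score, the lists and the sets were chosen with earlier results of these data known. Gene positions are from GENCODE M21 (GRCm38, the same assembly as mm10) and promoters from RefSeq. No cell was left out, and no doublet caller was run. The functions were checked on simulated data.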

Additional observations from a re-analysis of the deposited data

How the results depend on the processing

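No paired analysis was possible because the cells form 1 labelled group and their numbers pair nothing. The alternatives were planned together with the comparison, except leaving out each cell and leaving out cell 83, which were added after the data were seen. Against 4 genes higher and 5 lower by 1 or more, a pseudocount of 0.1 gave 211 and 43, a pseudocount of 5 gave 2 and 1, differences of medians gave 25 and 9, and a size of 0.5 gave 157 and 39. The count of higher genes was 9 after rescaling without digestive enzymes, 16 with 18 cells a group, 10 with the score without Trib3, 7 with the highest and lowest 25% taken within each set and 11 in cells 1 to 91. The count of lower genes was 2 with 36 cells a group, 0 with the score without Chac1 and 8 for the mean of within-set differences. Leaving out 1 cell at a time gave 3 to 8 higher and 4 to 7 lower, with 7 or 8 higher without cell 1, 6, 23, 64, 87, 97 or 100. The residual on genes detected moved the median of all genes from 0.08 to 0.01. Against 12 genes at a correlation of 0.4, there were 30 after rescaling without enzymes, 7 with median-of-ratios scaling, 21 in cells 1 to 91, 4 for the residual, 1 with the score without Chac1 and 7 without Trib3. Some settings use fewer cells or genes, and the causes of these changes were not tested. All 396 list medians under alternatives moved by less than the spread over cells, and 860 of 863 single-gene values did. For most lists this spread exceeds the median itself, as with 0.33 beside 0.07 for ribosomal proteins. The list count was therefore nearly fixed in advance and does not show stability, since 10 lists had medians on both sides of 0. The single-gene count uses the same wide measure. Fgf21 stayed past 1 in all 18 planned or added settings (1.26 to 2.62), Herpud1 in 10 of 18 (0.73 to 1.30). Medians of the amino acid list stayed above that of all genes in all settings (by 0.10 to 0.30), as did those of ER chaperones (by 0.02 to 0.20). This was not particular to these lists. It also held for the ATF4-CHOP, synthetase, sensor, secretory route, heat shock, apoptosis and cholesterol lists, the last by 0.01 to 0.20. Without cells' read depth, TPM near 1 cannot be told from absence.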
